A study of Mus musculus with 11 samples.

Results

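Chemokines are small secreted proteins that draw leukocytes into tissue along a gradient, and their RNA was followed in mouse tumours of 4T1, a mammary carcinoma line that models triple-negative disease of the breast. The ligand genes were taken by symbol: every gene whose symbol begins with Ccl, Cxcl, Cx3cl or Xcl and a number, other than the lymph node chemokines Ccl19, Ccl21a, Ccl21b and Cxcl13, which left 32 of the 17181 genes in the table. Of these 32, 28 reached an FPKM (a fragment count divided by transcript length and library size) of 1 or more in 2 or more of the 11 libraries and were tested. Ccl20, Ccl28, Cxcl15 and Cxcl17 did not, with no library at 1 or above. By the leukocyte they are best known to recruit, 5 ligands (4 tested) were grouped as neutrophil ligands, 9 (9 tested) as monocyte ligands, 13 (11 tested) as lymphocyte and dendritic cell ligands, 2 (2 tested) as eosinophil ligands and 3 (2 tested) as other or broad.

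Poly(A) RNA was sequenced from 11 tumours after 12 days of treatment, begun when tumours were near 100 mm3. In the combination group (n = 3) mice received palbociclib, which blocks the cell cycle kinases CDK4 and CDK6, by mouth at 30 mg/kg per day together with OPG-Fc by intraperitoneal injection at 10 mg/kg 3 times a week. OPG-Fc is an osteoprotegerin fusion protein that binds RANKL, the ligand of RANK. The palbociclib group (n = 3) and the OPG-Fc group (n = 3) received 1 of the agents at the same dose, and the vehicle group (n = 2) received sodium lactate plus corn oil in DMSO. All groups carried 4T1 cells labelled wild type, injected in Matrigel under the skin of both flanks of NSG mice. NSG hosts lack T, B and NK cells, whereas the series title calls the model syngeneic. Which tumours share an animal is not given in the labels, so each p-value reflects only the spread among these tumours. In the column names combination replicates 1 and 2 share a first number, as do OPG-Fc replicates 2 and 3. The labels do not explain that number, and if it is the animal, these tumours are not independent. In bulk RNA, fewer cells of a type and less RNA per cell cannot be told apart.

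Libraries differed in tissue content, and 1 of them went against its label as 4T1 epithelial tissue. In vehicle replicate 2 the summed FPKM of 7 epithelial tumour markers was 45.5, against 2359 to 3490 in the other 10 libraries, and that of 11 lymphoid and lymph node markers was 6666. OPG-Fc replicate 2 held 863 FPKM of the lymphoid markers, and the remaining 9 libraries 15.7 to 63.4. The 5 skin keratinocyte markers summed to 964 and 862 FPKM in palbociclib replicates 1 and 3, against 2.87 to 231 in the other 9 libraries. Comparisons among the 3 treated groups were therefore fitted on their 9 libraries, and those with vehicle were fitted with all 11 and again without vehicle replicate 2. Read counts were not used here. The spacing of low FPKM values of single-transcript genes placed the depth at an estimated 21000000 to 27000000 fragments per library if fragments average 250 bases, which is a rough figure.

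Chemokine receptors are G protein-coupled receptors on the leukocyte, and each receptor reads a subset of ligands: CXCR2 on neutrophils reads Cxcl1, Cxcl2, Cxcl3 and Cxcl5, CCR2 on inflammatory monocytes reads Ccl2, Ccl7 and Ccl12, CCR3 on eosinophils reads the eotaxins Ccl11 and Ccl24, and CXCR4 reads Cxcl12. Many inflammatory ligands are switched on by the transcription factor NF-kB, while others, such as Cxcl12, are made steadily by stromal cells. In mammary tumours, macrophages, neutrophils, fibroblasts and carcinoma cells are all known sources of chemokines.

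Promoter windows of 160 bases ending at the annotated start were read from RefSeq (mouse build GRCm38.p6, which is older than the GRCm39 build named for the expression table) for 23 of the 32 ligands. Ccl2, Ccl4, Ccl5, Ccl7, Ccl11, Ccl24, Cxcl5, Cxcl16 and Cxcl17 had no window and were not searched. Searched on both strands, the NF-kB motif, here GGGA, any base, TT, any base and CC in a row, occurred in 4 of these 23, Cxcl1, Cxcl2, Cxcl3 and Cxcl10, and in 0.642% of 32851 mouse promoter windows of the same length. Of the 4, 3 belong to the CXCR2 ligand family, whose genes lie next to each other on chromosome 5 and share sequence, so their matches are not independent. The motif TATAAA occurred in 8 of the 23 and in 8.01% of all windows, the AP-1 motif TGANTCA in 4 and 4.53%, and the C/EBP motif, here TT, any 2 bases, G, any base and AA, in 6 and 24.2%. A ligand counted if any of its windows matched, and Ccl27a had 3 windows, Ccl27b 4 and Ccl25 2. Their matches lay in only some of these windows. The share of all windows is per window, so it is not a like measure for these genes. Windows are shown for the 4 ligands with the NF-kB letters, for Ccl8 and Ccl9, a pair of monocyte ligands, and for Cxcl12, the ligand with the largest difference between palbociclib and OPG-Fc. They are written 5′ to 3′ along the gene's strand, with matches to the NF-kB motif or TATAAA in capitals: Cxcl1 at chr5:90891085-90891244 (plus strand), Cxcl2 at chr5:90903739-90903898 (plus), Cxcl3 at chr5:90785941-90786100 (plus), Cxcl10 at chr5:92348890-92349049 (minus), Ccl8 at chr11:82115025-82115184 (plus), Ccl9 at chr11:83578637-83578796 (minus) and Cxcl12 at chr6:117168375-117168534 (plus).
Cxcl1: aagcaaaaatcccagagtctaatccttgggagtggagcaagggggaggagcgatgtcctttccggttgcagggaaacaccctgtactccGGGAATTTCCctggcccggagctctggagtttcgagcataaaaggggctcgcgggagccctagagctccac
Cxcl2: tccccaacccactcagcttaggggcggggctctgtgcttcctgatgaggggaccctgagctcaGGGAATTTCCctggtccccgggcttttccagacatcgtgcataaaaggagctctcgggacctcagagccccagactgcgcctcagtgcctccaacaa
Cxcl3: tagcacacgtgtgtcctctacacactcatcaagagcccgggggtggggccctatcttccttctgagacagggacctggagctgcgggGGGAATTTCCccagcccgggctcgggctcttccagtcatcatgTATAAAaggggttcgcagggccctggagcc
Cxcl10: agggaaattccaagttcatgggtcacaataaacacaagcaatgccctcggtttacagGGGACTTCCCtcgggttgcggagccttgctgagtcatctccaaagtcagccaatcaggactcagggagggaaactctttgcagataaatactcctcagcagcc
Ccl8: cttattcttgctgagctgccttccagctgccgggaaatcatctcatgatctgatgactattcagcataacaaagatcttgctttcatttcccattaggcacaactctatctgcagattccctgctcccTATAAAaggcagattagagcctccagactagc
Ccl9: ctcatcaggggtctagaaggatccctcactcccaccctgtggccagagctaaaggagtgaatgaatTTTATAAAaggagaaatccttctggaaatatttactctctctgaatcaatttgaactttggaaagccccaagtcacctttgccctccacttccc
Cxcl12: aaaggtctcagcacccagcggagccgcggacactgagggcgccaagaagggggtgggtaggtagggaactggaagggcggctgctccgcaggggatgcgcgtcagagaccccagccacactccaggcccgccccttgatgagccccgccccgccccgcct

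The first base of the NF-kB match lay 71 bases before the start in Cxcl1, 97 in Cxcl2, 73 in Cxcl3 and 103 in Cxcl10. TATAAA lay 30 bases before the start in Cxcl3 and 32 in Ccl8. In Ccl9 the capitals cover a match on each strand, which overlap, 94 and 92 bases before the start. The Cxcl12 window held none of the 4 motifs. A match is a description of these letters only, and binding was not measured.

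The 32 ligands together made up 857 to 4192 FPKM per library, or 0.132% to 0.688% of the summed FPKM. Ccl8, a CC chemokine made by macrophages that in mice acts through CCR8, had the highest level in all 11 libraries and made up 22.1% to 62.4% of the chemokine sum. Averaged over the 11 libraries, Ccl8 (964 FPKM) was followed by Ccl6 (262 FPKM), Cxcl16 (103 FPKM), Cxcl14 (94.1 FPKM) and Cxcl1 (79.8 FPKM). Between 23 and 28 of the 32 ligands had an FPKM of at least 1 in a given library.

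**Figure D1:**
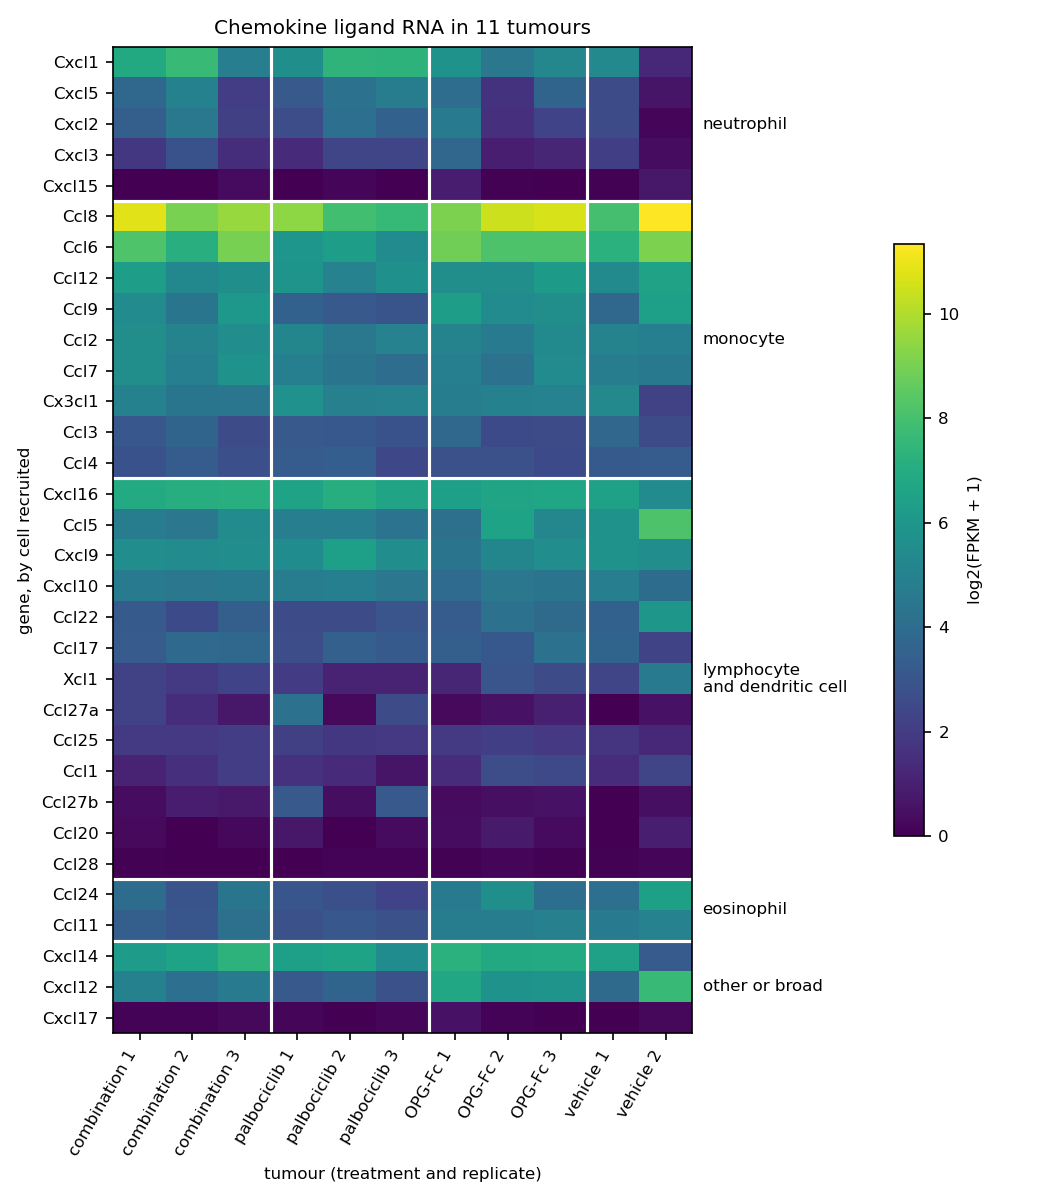
Level of each of the 32 ligands as log2(FPKM + 1) (colour) in the 11 tumours (columns: combination, palbociclib, OPG-Fc, vehicle), with genes grouped by recruited cell and ordered by mean level within a group. Ccl8 is the brightest row in every column, and vehicle replicate 2 differs from vehicle replicate 1 in most rows.

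Palbociclib against OPG-Fc was the comparison with the most ligands called. Of the 28 tested ligands, 6 were lower in palbociclib tumours and 0 were higher with limma, at an adjusted p (Benjamini-Hochberg, all genes) under 0.05: Cxcl12, Ccl11, Ccl9, Ccl6, Ccl24 and Ccl22. The 6 are 21.4% of the ligands, while 9.18% of all 13074 genes were lower and 1.15% were higher. Palbociclib tumours lay wholly below OPG-Fc tumours for 7 ligands, where 21.8% of all genes did, and wholly above for 1, Cxcl10, where 11.3% did. The median log2 difference of the ligands was -0.21, and that of all genes was -0.04. Of all genes called, 11.1% were higher in palbociclib tumours, a share that was 21.6% after median-of-ratios scaling and 27.5% after quantile normalization. Under both scalings 0 ligands were higher and 5 were lower, with Ccl22 no longer called. The call for all 6 ended, as did that of every gene, when palbociclib replicates 1 and 3 with their skin transcripts were left out, which left 1 palbociclib library. In that fit the log2 differences were -2.48 for Cxcl12, -1.74 for Ccl11, -2.65 for Ccl9, -2.10 for Ccl6, -2.04 for Ccl24 and -1.18 for Ccl22. With the 2 vehicle libraries in the fit, 1 ligand, Ccl11, was called.

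**Figure D2:**
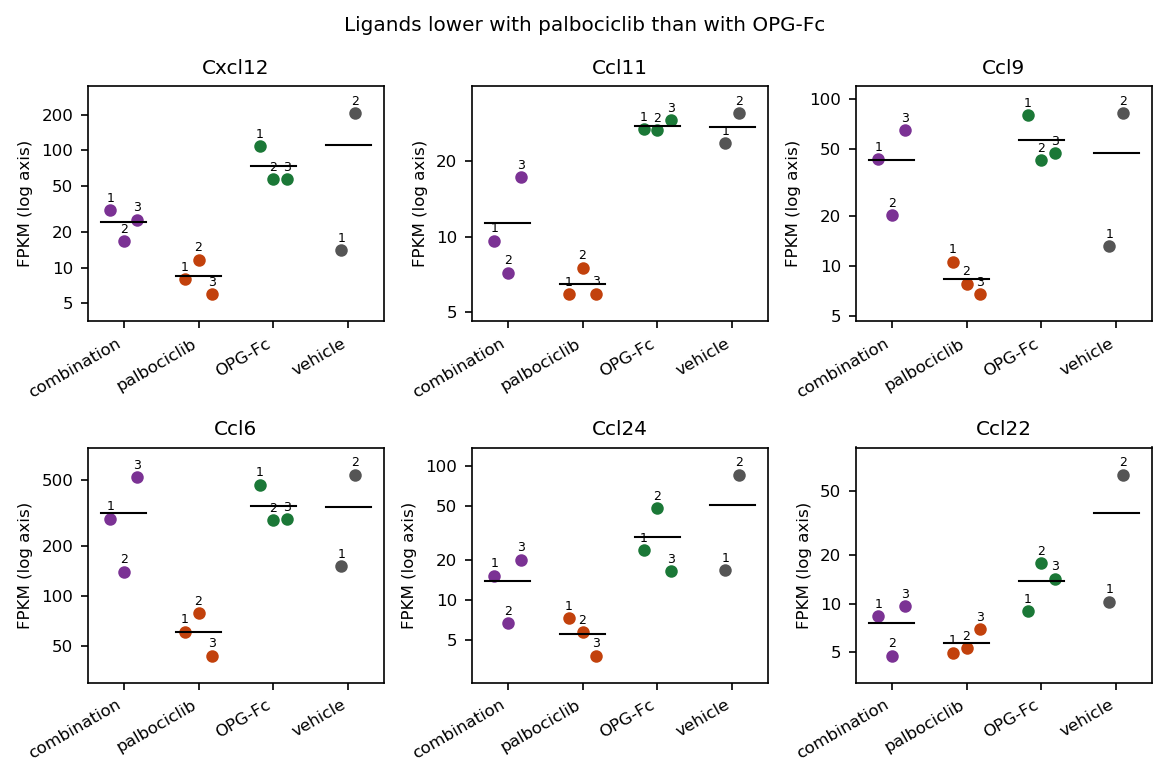
FPKM on a log axis of the 6 ligands that were lower with palbociclib than with OPG-Fc, 1 point per tumour labelled with its replicate number and a line at the group mean. For each gene the 3 palbociclib tumours lie below the 3 OPG-Fc tumours, while the 2 vehicle tumours lie far apart for Cxcl12, Ccl9, Ccl6, Ccl24 and Ccl22.

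Cxcl12, the stromal ligand of CXCR4 that retains leukocytes and progenitors in tissue, had 7.97, 11.7 and 5.99 FPKM in palbociclib tumours, against 108, 56.3 and 56.7 FPKM in OPG-Fc tumours. Every palbociclib tumour lay below every OPG-Fc tumour. The means were 8.56 ± 2.90 FPKM with palbociclib and 73.6 ± 29.7 FPKM with OPG-Fc (SD, n = 3 each). Cxcl12 was lower by 2.94 ± 0.31 on the log2(FPKM + 1) scale in palbociclib than in OPG-Fc tumours (SE, limma adjusted p = 0.00108). Combination tumours had 30.9, 16.9 and 25.6 FPKM and lay between the single-agent groups without overlap with either. Against OPG-Fc, Cxcl12 was lower by 1.52 ± 0.31 in combination tumours (SE, limma adjusted p = 0.0331). That call ended with all 11 libraries in the fit (limma adjusted p = 0.365), with libraries sharing a first number averaged (0.0908), and without the palbociclib replicates with skin transcripts (0.0614) or the libraries with lymphoid transcripts (0.0640). Against palbociclib the combination was 1.42 ± 0.31 higher on the same scale, which did not pass (SE, limma adjusted p = 0.0912). In vehicle tumours Cxcl12 had 14.0 and 206 FPKM. The lower value lay between the palbociclib and combination tumours and the higher above all 9 treated tumours. Against vehicle replicate 1 alone, Cxcl12 was at 2.24 on the log2 scale with OPG-Fc and at -0.70 with palbociclib. Against both vehicle libraries it was at 0.35 and -2.59, and neither passed.

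Against OPG-Fc, fibroblast, endothelial and adipocyte markers were lower by median in both groups given palbociclib, as Cxcl12 was. All 6 fibroblast markers were tested, and 5 were lower with palbociclib and 4 with the combination than with OPG-Fc. Over all genes 9.18% and 3.7% were lower in these comparisons. Their summed FPKM was 455 to 635 in combination tumours, 378 to 493 in palbociclib tumours, 1136 to 1605 in OPG-Fc tumours and 446 to 922 in vehicle tumours. The 4 endothelial markers were all lower in both comparisons, at sums of 33.3 to 39.5 FPKM with the combination, 32.4 to 32.9 FPKM with palbociclib, 75.1 to 96.5 FPKM with OPG-Fc and 50.2 to 96.0 FPKM with vehicle. Of 4 adipocyte markers, 3 were lower with palbociclib and 1 with the combination than with OPG-Fc, at sums of 73.0 to 383 FPKM with the combination, 47.5 to 66.8 FPKM with palbociclib, 468 to 1273 FPKM with OPG-Fc and 51.8 to 602 FPKM with vehicle. No marker of these lists was at 0 in any library. In the combination against palbociclib, Cxcl12 was higher without overlap but did not pass. In that comparison 0% of all genes were called, so 0 called markers is not a result about these markers. The median log2 difference there was 0.31 for fibroblast, 0.10 for endothelial and 1.20 for adipocyte markers. Vehicle replicate 2, with the higher Cxcl12, had the higher endothelial sum (96.0 FPKM, against 50.2 FPKM in replicate 1) and the higher adipocyte sum, but the lower fibroblast sum (446 FPKM, against 922 FPKM in replicate 1). The part of these cell types in the difference was not tested.

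Cxcl14, a CXC chemokine of epithelia and fibroblasts, had 74.3, 93.4 and 160 FPKM in combination tumours and 82.4, 94.3 and 44.2 FPKM in palbociclib tumours. In OPG-Fc tumours it had 150, 116 and 122 FPKM, and in vehicle tumours 89.9 and 8.64 FPKM. The palbociclib tumours lay below the OPG-Fc tumours without overlap, by -0.87 ± 0.32 on the log2 scale, and this did not pass in limma (adjusted p = 0.128). Cxcl17, a mucosal chemokine, stayed at or below 0.47 FPKM in every library.

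Both eotaxins were lower in palbociclib tumours than in OPG-Fc tumours. Ccl11 had 9.66, 7.21 and 17.4 FPKM in combination tumours, 5.92, 7.54 and 5.94 FPKM in palbociclib tumours, 26.9, 26.6 and 29.3 FPKM in OPG-Fc tumours, and 23.7 and 31.2 FPKM in vehicle tumours. All 6 tumours given palbociclib, alone or in combination, lay below all 5 tumours not given it, vehicle replicate 2 included. Ccl11 averaged 6.47 ± 0.93 FPKM with palbociclib and 27.6 ± 1.47 FPKM with OPG-Fc (SD, n = 3 each). The palbociclib tumours were lower by 1.94 ± 0.25 on the log2 scale (SE, limma adjusted p = 0.00173). In the combination it was lower by 1.29 ± 0.25 than with OPG-Fc (SE, limma adjusted p = 0.0284). The call in the combination ended with all 11 libraries in the fit (limma adjusted p = 0.177), with libraries sharing a first number averaged (0.130), after quantile normalization (0.0512), and without the palbociclib replicates with skin transcripts (0.0706) or the libraries with lymphoid transcripts (0.0719).

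Ccl24 is a macrophage-derived eotaxin. It had 15.1, 6.72 and 19.9 FPKM in combination tumours, 7.27, 5.71 and 3.84 FPKM in palbociclib tumours, 23.4, 48.5 and 16.3 FPKM in OPG-Fc tumours, and 16.6 and 86.0 FPKM in vehicle tumours. Palbociclib and OPG-Fc tumours did not overlap, and Ccl24 was lower by 2.09 ± 0.43 on the log2 scale with palbociclib (SE, limma adjusted p = 0.0139). This call was lost without palbociclib replicate 3 (-1.89, adjusted p = 0.0593). Against OPG-Fc the combination was at -1.0 ± 0.43, which did not pass in limma (adjusted p = 0.150). Eosinophil markers were low in all libraries. Of 4 listed markers 3 were in the table, and their sum was 0.65 to 1.16 FPKM with the combination, 0.43 to 0.60 FPKM with palbociclib, 2.18 to 4.77 FPKM with OPG-Fc and 0.84 to 12.4 FPKM with vehicle, with Prg2, a granule protein, at 0 in vehicle replicate 1. Ccr3, the eotaxin receptor, had 0.05 to 0.28 FPKM in the 6 combination and palbociclib tumours, against 0.32 to 1.32 FPKM in OPG-Fc tumours. The part of eosinophils in these differences was not tested.

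Among the 9 monocyte ligands, Ccl9 and Ccl6 were lower with palbociclib than with OPG-Fc and the rest were not called. These are neighbouring genes on mouse chromosome 11 whose products act through CCR1, and myeloid cells express both. Ccl6 had 293, 140 and 522 FPKM in combination tumours, 60.7, 78.4 and 43.7 FPKM in palbociclib tumours, 471, 287 and 290 FPKM in OPG-Fc tumours, and 151 and 540 FPKM in vehicle tumours. All 3 palbociclib tumours lay below each of the other 8 tumours. Ccl6 was lower by 2.498 ± 0.42 on the log2 scale with palbociclib than with OPG-Fc (SE, limma adjusted p = 0.00527). Against vehicle replicate 1 alone, Ccl6 was at 1.16 with OPG-Fc and at -1.33 with palbociclib.

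Ccl9 followed the same order. It had 43.8, 20.2 and 65.0 FPKM in combination tumours, 10.6, 7.86 and 6.80 FPKM in palbociclib tumours, 79.9, 43.1 and 47.3 FPKM in OPG-Fc tumours, and 13.1 and 82.3 FPKM in vehicle tumours. Again each palbociclib tumour lay below the other 8. Ccl9 averaged 8.42 ± 1.97 FPKM with palbociclib and 56.8 ± 20.1 FPKM with OPG-Fc (SD, n = 3 each). The palbociclib tumours were lower by 2.58 ± 0.38 on the log2 scale (SE, limma adjusted p = 0.00309). Against vehicle replicate 1 alone, Ccl9 was at 1.98 with OPG-Fc and at -0.61 with palbociclib. Against both vehicle libraries it was at 0.70 and -1.88, and neither passed.

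Ccl8 had 1795, 532 and 770 FPKM in combination tumours, 680, 239 and 190 FPKM in palbociclib tumours, and 542, 1435 and 1580 FPKM in OPG-Fc tumours. In vehicle tumours it had 253 and 2582 FPKM, the lower of which lay inside the palbociclib range. Palbociclib and OPG-Fc tumours overlapped, because palbociclib replicate 1 lay above OPG-Fc replicate 1. The log2 difference of -1.77 ± 0.60 did not pass in limma (adjusted p = 0.0995).

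Macrophage markers were also lower with palbociclib than with OPG-Fc. Of 8 tested, 7 were lower with palbociclib than with OPG-Fc, and 1 was lower with the combination. Over all genes 9.18% and 3.7% were lower in these comparisons. The median log2 difference of the macrophage markers was -1.12 with palbociclib and -0.10 with the combination. They summed to 963 to 2093 FPKM in combination tumours, 665 to 871 FPKM in palbociclib tumours, 1495 to 1625 FPKM in OPG-Fc tumours and 1011 to 1797 FPKM in vehicle tumours. Combination replicate 3 had the highest sum of its group and replicate 2 the lowest, as for Ccl6 and Ccl9, and vehicle replicate 2 had a higher sum than vehicle replicate 1. In the OPG-Fc group the order differed, since replicate 1 had the lowest macrophage sum, at 1495 FPKM, and the highest Ccl6 and Ccl9. By gene, C1qa, C1qb, C1qc, Cd68 and Fcgr1 were highest in combination replicate 3 within that group, but Adgre1, Csf1r and Mrc1 in replicate 1. No macrophage marker was at 0 in any library. The part of macrophages in the difference was not tested.

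The CCR2 ligands, which call inflammatory monocytes out of blood, showed no called difference. Ccl2 had 48.1, 32.6 and 46.8 FPKM in combination tumours, 36.0, 22.5 and 31.5 FPKM in palbociclib tumours, 32.6, 25.7 and 41.8 FPKM in OPG-Fc tumours, and 32.4 and 29.1 FPKM in vehicle tumours. Ccl12, a mouse gene of the same cluster, ranged from 31.6 to 92.0 FPKM over the 11 libraries, and Ccl7 from 15.8 to 53.8 FPKM. For each of the 3 genes the treated groups overlapped, except that combination tumours lay above palbociclib tumours for Ccl7, at 47.5, 29.2 and 53.8 FPKM against 28.9, 19.4 and 15.8 FPKM. That difference of 0.99 ± 0.33 on the log2 scale did not pass in limma (adjusted p = 0.205).

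Cx3cl1, the membrane-bound ligand of CX3CR1, had 31.1, 20.2 and 20.7 FPKM in combination tumours, 52.1, 29.6 and 31.5 FPKM in palbociclib tumours, 26.5, 30.3 and 31.9 FPKM in OPG-Fc tumours, and 39.6 and 3.59 FPKM in vehicle tumours. Its log2 difference between combination and palbociclib was -0.61 ± 0.23 and did not pass in limma (adjusted p = 0.236). The macrophage inflammatory proteins Ccl3 and Ccl4 lay between 4.92 and 13.1 FPKM and between 4.52 and 9.38 FPKM over the 11 libraries.

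None of the 4 tested neutrophil ligands was called in a comparison, and their levels differed widely between tumours of the same group. Cxcl1, the most abundant CXCR2 ligand here, had 118, 206 and 27.8 FPKM in combination tumours, 49.1, 164 and 158 FPKM in palbociclib tumours, 55.0, 21.4 and 36.5 FPKM in OPG-Fc tumours, and 39.1 and 1.45 FPKM in vehicle tumours. The groups overlapped apart from vehicle, whose 2 tumours lay below all 3 palbociclib tumours. Relative to OPG-Fc, Cxcl1 was at 1.60 ± 0.71 with palbociclib and 1.31 ± 0.71 with the combination on the log2 scale, and neither passed in limma (adjusted p = 0.201 and 0.229).

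Cxcl2 had 9.80, 22.1 and 3.37 FPKM in combination tumours, 5.45, 16.4 and 10.5 FPKM in palbociclib tumours, 24.4, 2.00 and 3.79 FPKM in OPG-Fc tumours, and 5.04 and 0.15 FPKM in vehicle tumours. Cxcl5 had 12.9, 30.1 and 3.22 FPKM in combination tumours, 8.0, 17.9 and 25.9 FPKM in palbociclib tumours, 15.5, 2.12 and 11.6 FPKM in OPG-Fc tumours, and 5.25 and 0.55 FPKM in vehicle tumours. Cxcl3 ranged from 0.28 to 12.3 FPKM. The 4 genes shared their order inside the groups: combination replicate 2 was highest and replicate 3 lowest for each, palbociclib replicate 1 was lowest for each, OPG-Fc replicate 1 was highest and replicate 2 lowest for each, and vehicle replicate 2 was the lowest of the 11. Cxcl15, the lung ligand of the group, stayed at or below 0.84 FPKM.

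**Figure D3:**
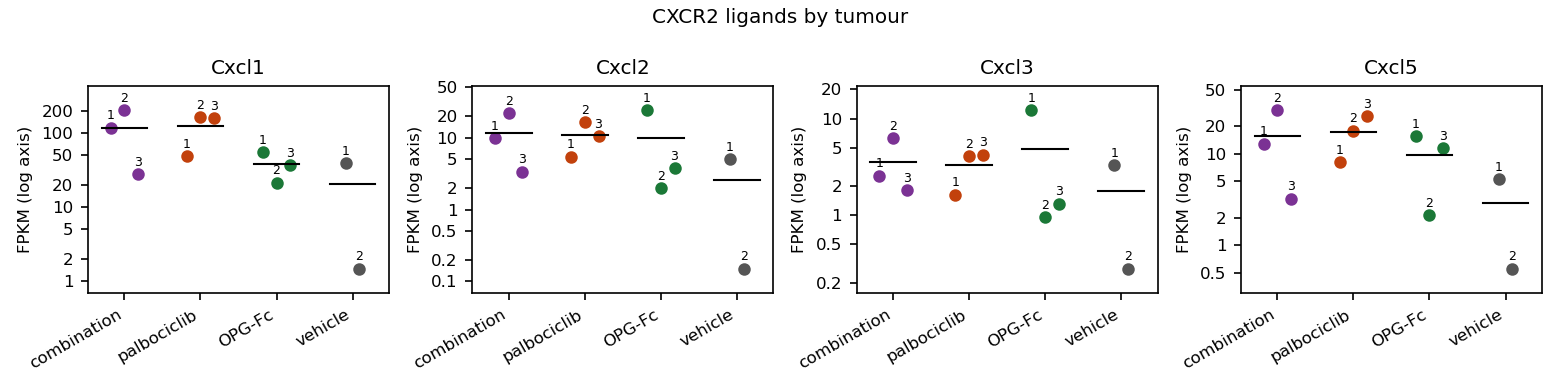
FPKM on a log axis of the 4 tested neutrophil ligands, 1 point per tumour labelled with its replicate number and a line at the group mean. The order of replicates within the combination and OPG-Fc groups is the same for all 4 genes, and vehicle replicate 2 is the lowest tumour for each.

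S100a8, a calcium-binding protein abundant in neutrophils, had 476, 830 and 106 FPKM in combination tumours and 213, 388 and 624 FPKM in palbociclib tumours. In OPG-Fc tumours it had 833, 169 and 266 FPKM, and in vehicle tumours 116 and 111 FPKM. Its highest and lowest replicates in the combination and OPG-Fc groups were those of the ligands, as for S100a9, Csf3r, Cxcr2 and Clec4d. Retnlg and G0s2 were instead lowest in OPG-Fc replicate 3, and Mmp9 in combination replicate 1. In vehicle replicate 2, Csf3r, Cxcr2, Retnlg and G0s2 were higher than in replicate 1, and S100a8, S100a9, Mmp9 and Clec4d were lower. The 8 neutrophil markers summed to 454 to 1881 FPKM with the combination, 574 to 1358 FPKM with palbociclib, 584 to 1947 FPKM with OPG-Fc and 267 to 617 FPKM with vehicle, and none was at 0. Of the 8, 1 was lower with palbociclib than with OPG-Fc, where 9.18% of all genes were. The part of neutrophils in the variation of these ligands was not tested.

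Among the 11 tested lymphocyte and dendritic cell ligands, Ccl22 was the 1 called, lower with palbociclib than with OPG-Fc. Ccl22, a CCR4 ligand made by dendritic cells and macrophages, had 8.36, 4.76 and 9.67 FPKM in combination tumours, 4.96, 5.28 and 6.94 FPKM in palbociclib tumours, 8.98, 17.96 and 14.4 FPKM in OPG-Fc tumours, and 10.3 and 63.6 FPKM in vehicle tumours. Palbociclib and OPG-Fc tumours did not overlap, and Ccl22 was lower by 1.10 ± 0.28 on the log2 scale with palbociclib (SE, limma adjusted p = 0.0340). The highest values were those of vehicle replicate 2 and OPG-Fc replicate 2, the libraries with lymphoid transcripts. Without both, the difference was -0.89 and did not pass (limma adjusted p = 0.124). With libraries left out in turn, it also did not pass without any 1 of the palbociclib replicates or without OPG-Fc replicate 3 (-1.01 to -1.22). Over all alternative settings, Ccl22 was called in 8 of 22. Lymphoid markers such as Ms4a1 and Ccl19 were at 0 in at least 1 library, and the part of lymphoid tissue was not tested.

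Ccl5, a chemokine of T cells, NK cells and macrophages, varied with the same libraries. It had 27.2, 21.3 and 43.7 FPKM in combination tumours, 28.1, 27.6 and 19.2 FPKM in palbociclib tumours, 17.2, 95.2 and 37.1 FPKM in OPG-Fc tumours, and 55.2 and 285 FPKM in vehicle tumours. Xcl1, which attracts dendritic cells that carry XCR1, was also highest in vehicle replicate 2 (24.8 FPKM) and OPG-Fc replicate 2 (6.97 FPKM), and had 1.15 to 5.14 FPKM in the other 9. Among the treated groups the differences of both genes did not pass.

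Of the interferon-induced CXCR3 ligands, Cxcl9 and Cxcl10 were called in no comparison among the treated groups. Cxcl9 had 46.4, 43.7 and 45.8 FPKM in combination tumours, 44.1, 83.1 and 46.7 FPKM in palbociclib tumours, 19.9, 36.2 and 45.9 FPKM in OPG-Fc tumours, and 53.2 and 46.5 FPKM in vehicle tumours. Cxcl10 had 25.3, 21.3 and 23.0 FPKM in combination tumours, 27.2, 29.1 and 21.4 FPKM in palbociclib tumours, 14.8, 21.2 and 19.6 FPKM in OPG-Fc tumours, and 28.2 and 14.9 FPKM in vehicle tumours. Against OPG-Fc, Cxcl10 lay higher without overlap in both groups given palbociclib, by 0.46 ± 0.16 with palbociclib and 0.32 ± 0.16 with the combination on the log2 scale, and neither passed in limma (adjusted p = 0.106 and 0.201).

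Cxcl16, the transmembrane ligand of CXCR6, had 121, 132 and 137 FPKM in combination tumours, 94.9, 134 and 96.7 FPKM in palbociclib tumours, 82.2, 96.7 and 103 FPKM in OPG-Fc tumours, and 89.4 and 43.8 FPKM in vehicle tumours. Combination tumours lay above OPG-Fc and vehicle tumours without overlap, and the log2 difference from OPG-Fc of 0.47 ± 0.15 did not pass in limma (adjusted p = 0.0842). Ccl17, the other CCR4 ligand, ranged from 4.00 to 18.02 FPKM, Ccl25, a CCR9 ligand of thymus and gut, from 1.38 to 3.39 FPKM, and Ccl1, a CCR8 ligand, from 0.57 to 5.31 FPKM.

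Ccl27a and Ccl27b, nearly identical genes for a CCR10 ligand of keratinocytes, followed the skin transcripts. Ccl27b had 0.29, 0.88 and 0.73 FPKM in combination tumours, 7.85, 0.32 and 7.98 FPKM in palbociclib tumours, 0.27, 0.37 and 0.49 FPKM in OPG-Fc tumours, and 0.03 and 0.37 FPKM in vehicle tumours. Ccl27a had 3.63, 1.80 and 0.64 FPKM in combination tumours, 17.8, 0.23 and 5.19 FPKM in palbociclib tumours, 0.23, 0.48 and 1.02 FPKM in OPG-Fc tumours, and was listed at 0 and 0.48 FPKM in vehicle tumours. The high tumours were palbociclib replicates 1 and 3, which also had 113 and 73.4 FPKM of Krt10, a keratin of differentiating epidermis, against 1.74 FPKM in palbociclib replicate 2.

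Against OPG-Fc, Ccl27b was at 1.78 ± 0.62 with palbociclib and did not pass in limma (adjusted p = 0.107), and the difference was -0.06 without palbociclib replicates 1 and 3. Without palbociclib replicate 2 instead, which left only the 2 palbociclib libraries with skin transcripts, both paralogues were called higher. The share of all genes called in that fit is not given here. Over all alternative settings of this comparison, Ccl27b was called in 2 of 22. All 5 keratinocyte markers were tested, with sums of 99.3 to 231 FPKM in combination tumours, 152 to 964 FPKM in palbociclib tumours, 121 to 127 FPKM in OPG-Fc tumours and 2.87 to 113 FPKM in vehicle tumours, and Lor, a cornified envelope protein, was at 0 in OPG-Fc replicate 2. Reads shared by the 2 paralogues could have been split either way, so the level of each is uncertain.

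In the combination against OPG-Fc, 2 of 28 ligands, Ccl11 and Cxcl12, were lower (7.14%) and 0 were higher, while 3.7% of all genes were lower and 0.964% higher. The median log2 difference was 0.01 for the ligands and -0.07 for all genes. Of all genes called, 20.7% were higher in combination tumours, a share that was 31.4% after median-of-ratios scaling. Groups did not overlap for 2 ligands on the lower side, where 23.5% of all genes did not, and for 2 on the higher side, Cxcl10 and Cxcl16, where 15.3% did not. Leaving out combination replicate 2 or any 1 of the OPG-Fc replicates left 0 ligands called, Ccl11 alone was called without combination replicate 3 or palbociclib replicate 1, and Cxcl12 alone without combination replicate 1 or palbociclib replicate 3.

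In the combination against palbociclib, 0 ligands were called and 0% of all genes, while 9 of 28 ligands had an unadjusted p under 0.05, as did 17.7% of all genes. The smallest p among higher ligands belonged to Ccl9 (2.10 ± 0.38, limma adjusted p = 0.0677) and Ccl6 (2.21 ± 0.42, adjusted p = 0.0725). Among lower ligands it belonged to Cx3cl1 and to Ccl27b (-1.55 ± 0.62, adjusted p = 0.251). Ccl9, Ccl6, Ccl7 and Cxcl12 lay higher in all 3 combination tumours than in all 3 palbociclib tumours, 4 of 28 ligands, where 13.7% of all genes did, and 0 ligands lay wholly lower, where 7.04% did. Ccl9 and Ccl6 were called without combination replicate 2, and 4 ligands without palbociclib replicate 2. The share of all genes called in those fits is not given here. The 3 comparisons share libraries in pairs, so their values are not independent.

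**Figure D4:**
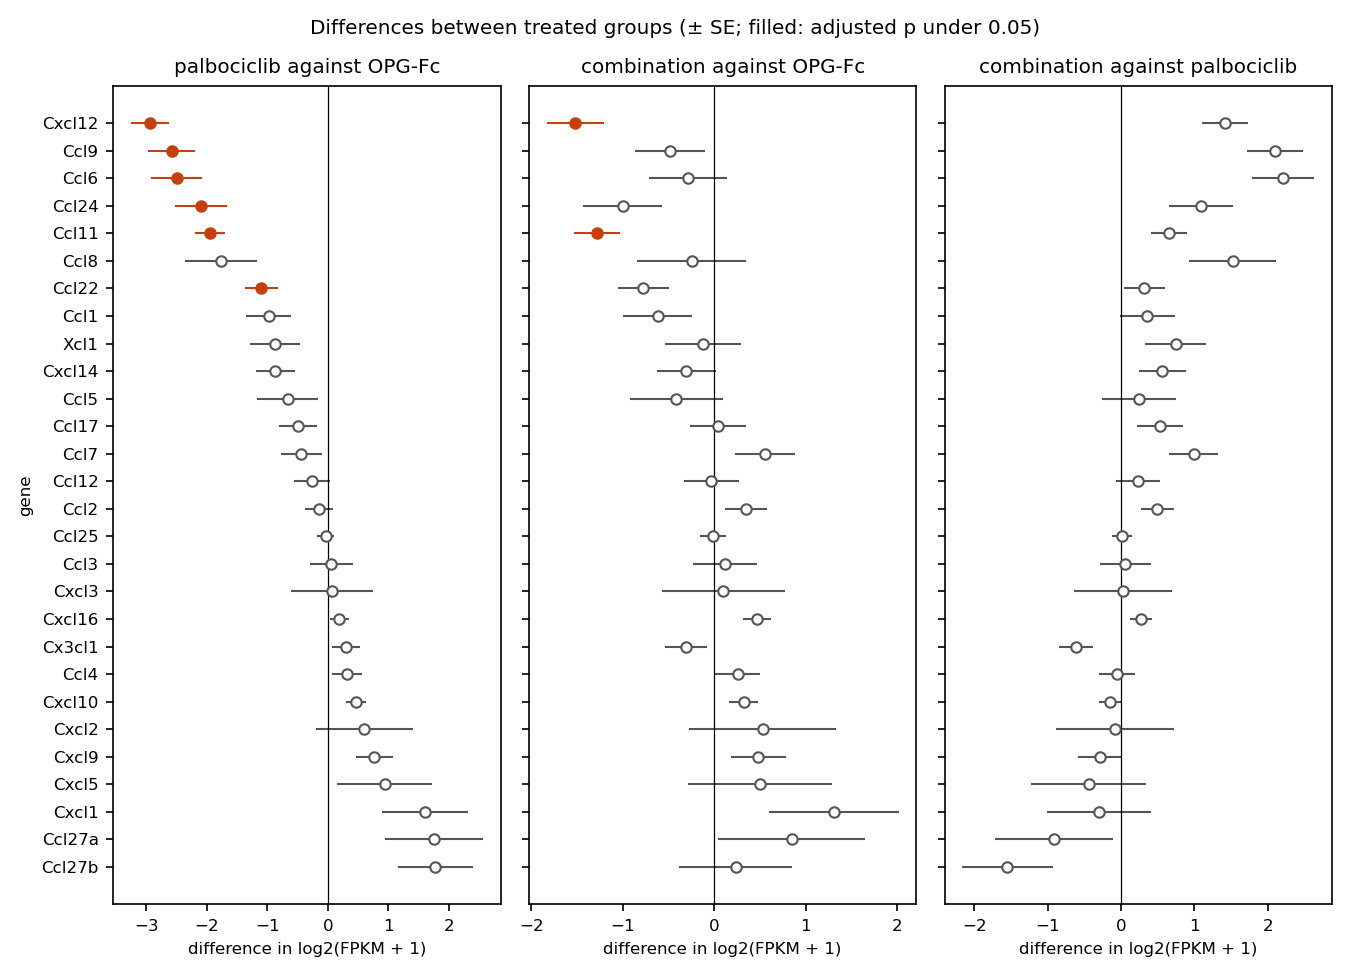
Difference in log2(FPKM + 1) with its SE for the 28 tested ligands in the 3 comparisons among treated groups, ordered by the difference between palbociclib and OPG-Fc, with filled points where the adjusted p was under 0.05. Filled points appear for 6 ligands in palbociclib against OPG-Fc, 2 in the combination against OPG-Fc and 0 in the combination against palbociclib.

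Chemokine receptors were taken from a list of 23, of which 18 were tested. In palbociclib against OPG-Fc, 4 of 18 (22.2%) were lower and 0 higher, Ccr2, Ackr1 and Cxcr4 among them. Of all 13074 genes, 9.18% were lower and 1.15% higher in that comparison. In the other comparisons 0 receptors were called. Ccr2, which marks inflammatory monocytes, had 28.1, 25.4 and 20.7 FPKM in combination tumours, 10.7, 11.6 and 13.9 FPKM in palbociclib tumours, 60.5, 32.1 and 42.9 FPKM in OPG-Fc tumours, and 16.0 and 51.2 FPKM in vehicle tumours. The 3 treated groups did not overlap. Ccr2 was lower by 1.78 ± 0.22 on the log2 scale with palbociclib than with OPG-Fc (SE, limma adjusted p = 0.00143).

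Ackr1, a decoy receptor of venules that binds many chemokines without signalling, had 1.09, 0.38 and 1.94 FPKM in combination tumours, 0.65, 0.61 and 0 FPKM in palbociclib tumours, 2.56, 3.29 and 2.84 FPKM in OPG-Fc tumours, and 0.46 and 8.38 FPKM in vehicle tumours. It was lower by 1.49 ± 0.29 with palbociclib than with OPG-Fc (SE, limma adjusted p = 0.00983). Cxcr4, the receptor of Cxcl12, had 8.15, 12.5 and 9.07 FPKM in palbociclib tumours and 17.2, 19.4 and 17.1 FPKM in OPG-Fc tumours. It was lower by 0.81 ± 0.21 with palbociclib (SE, limma adjusted p = 0.0401). None of these 3 receptors overlapped between the palbociclib and OPG-Fc groups. Palbociclib tumours lay wholly below OPG-Fc tumours for 6 of 18 receptors (33.3%), as they did for 21.8% of all genes. With libraries left out in turn, Cxcr4 lost its call without combination replicate 1, palbociclib replicate 1 or 3 or any OPG-Fc replicate (-0.70 to -0.84 on the log2 scale).

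Other receptors of the ligand groups were not called. Cxcr2 had 4.46, 5.64 and 1.00 FPKM in combination tumours, 3.16, 2.31 and 4.69 FPKM in palbociclib tumours, 7.53, 2.78 and 5.27 FPKM in OPG-Fc tumours, and 2.02 and 7.08 FPKM in vehicle tumours. Ccr1, the receptor of Ccl6 and Ccl9, ranged from 17.9 to 35.8 FPKM in the 9 treated tumours and had 22.0 and 11.9 FPKM in vehicle tumours. Cxcr3 ranged from 7.71 to 27.0 FPKM and Cx3cr1 from 1.62 to 13.6 FPKM over the 11 libraries.

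Against vehicle, 0 ligands were called for palbociclib, OPG-Fc or the combination, with all 11 libraries or without vehicle replicate 2. Over all genes 0% were called for each treatment in the fit of all 11 libraries, and in the fit lacking vehicle replicate 2 the shares were 0% for palbociclib, 0.00765% for OPG-Fc and 0.0612% for the combination. At an unadjusted p under 0.05, ligands numbered 13 for palbociclib (28.1% of all genes), 2 for OPG-Fc (10.2%) and 6 for the combination (29.6%) with all 11 libraries. Without vehicle replicate 2 they numbered 3 (9.68% of all genes), 4 (12.5%) and 4 (23.1%). Without vehicle replicate 1 instead, so that the library with few epithelial transcripts was the control, 17, 10 and 15 ligands were called for palbociclib, OPG-Fc and the combination, beside 6802, 5272 and 6640 of all 13074 genes. Without palbociclib replicate 2, Ccl11 and Ccl27b were called for palbociclib, among 156 of all genes.

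Ccl11 had the smallest p for palbociclib against vehicle, at -1.92 ± 0.29 on the log2 scale with all 11 libraries and -1.73 ± 0.35 without vehicle replicate 2, and did not pass in limma (adjusted p = 0.147 and 0.193). It also had the smallest p for the combination, at -1.27 ± 0.29 and -1.08 ± 0.35 (limma adjusted p = 0.0653 and 0.133). Ccl24 was at -2.60 ± 0.69 and -1.45 ± 0.61 with palbociclib (limma adjusted p = 0.158 and 0.497). Cxcl1 was at 3.47 ± 1.16 with palbociclib and 3.17 ± 1.16 with the combination with all 11 libraries, where vehicle replicate 2 had 1.45 FPKM (limma adjusted p = 0.158 and 0.122). Cxcl16 was at 1.04 ± 0.28 with the combination, and at 0.53 ± 0.21 without vehicle replicate 2 (limma adjusted p = 0.0749 and 0.186).

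OPG-Fc against vehicle depended on which vehicle tumour was the control. Cxcl14 (2.13 ± 0.77) and Ccl25 (0.46 ± 0.20) had the smallest p on the higher side, and Ccl5 (-1.65 ± 0.75) and Xcl1 (-1.26 ± 0.67) on the lower side, with all 11 libraries (limma adjusted p = 0.471 for the first 3 and 0.475 for Xcl1). Against vehicle replicate 1 alone, Cxcl12 was at 2.24 ± 0.44, Ccl9 at 1.98 ± 0.54 and Ccl8 at 2.08 ± 0.84, and none passed (limma adjusted p = 0.0879, 0.172 and 0.347). For these 3 genes vehicle replicate 1 lay below every OPG-Fc tumour and vehicle replicate 2 above every one.

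The interaction of the 2 agents, which asks whether palbociclib acts differently with OPG-Fc than without it, gave 0 called ligands and 0% of all genes in either fit. With an unadjusted p under 0.05 there was 1 ligand, Ccl6, with all 11 libraries and 0 without vehicle replicate 2, against 5.42% and 4.84% of all genes. Ccl6 was at 1.96 ± 0.82 and Xcl1 at 2.00 ± 0.90 on the positive side, and Ccl27b at -1.76 ± 0.94 and Cx3cl1 at -1.77 ± 0.95 on the negative side, with all 11 libraries (limma adjusted p = 0.647 for each). Leaving out vehicle replicate 1 gave 12 called ligands beside 4800 of all 13074 genes, and leaving out palbociclib replicate 2 gave 1, Ccl27b, beside 61 of all genes.

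Vehicle replicate 2 was the highest of the 11 libraries for 10 of the 28 tested ligands (35.7%) and the lowest for 9 (32.1%). Over all 13074 genes it was the highest for 34.8% and the lowest for 29.3%, so the ligands were near the background. It was highest for Ccl5, Cxcl12, Ccl22, Xcl1, Ccl24, Ccl8, Ccl9, Ccl6, Ccl11 and Ccl12, and lowest for the 4 tested neutrophil ligands, Cxcl14, Cxcl16, Cx3cl1, Ccl17 and Ccl25. Ccl5 lay 3.31 above the median of the other 10 on the log2(FPKM + 1) scale and Cxcl1 4.44 below it.

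**Figure D5:**
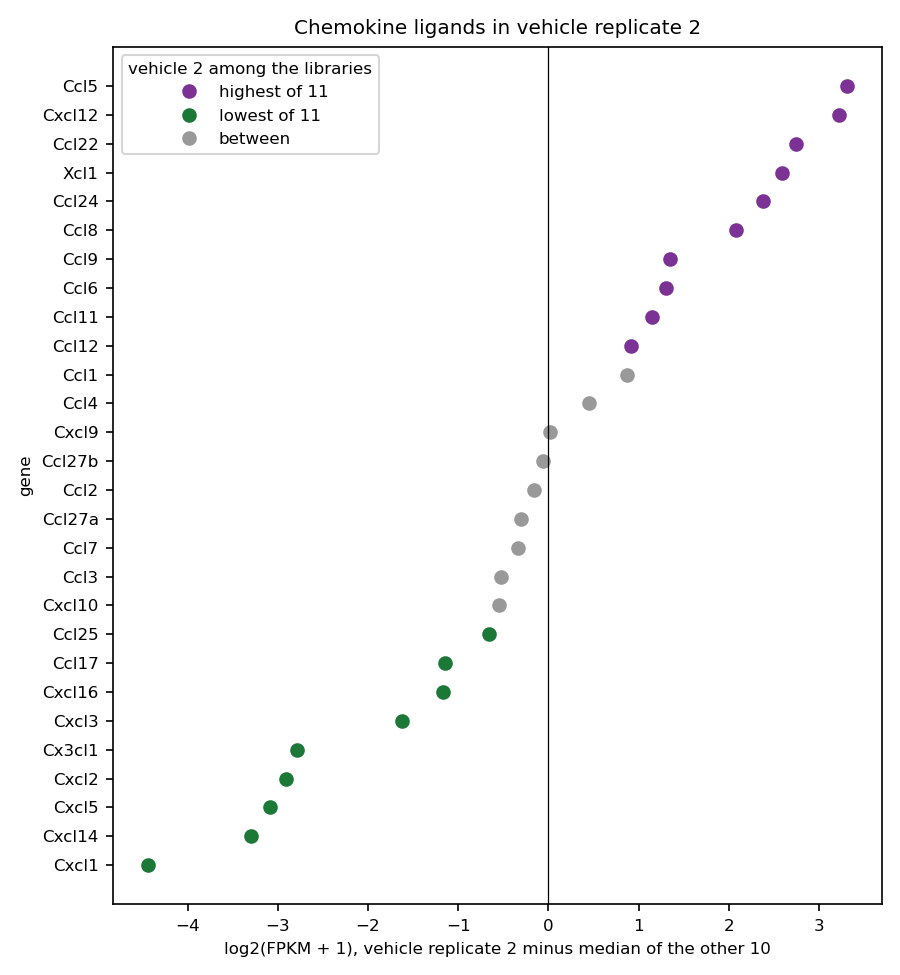
Level of each of the 28 tested ligands in vehicle replicate 2 minus the median of the other 10 libraries, in log2(FPKM + 1), coloured by whether that library was the highest, the lowest or neither of the 11. Ccl5 and Cxcl12 lie farthest above the other libraries, and Cxcl1 and Cxcl14 farthest below.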

How the data were processed

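RNA of 11 tumours was measured by sequencing of poly(A) RNA. The authors deposited FPKM values for 17181 genes in 1 table, scaled by transcript length and mapped fragments, and read counts were not used here. HISAT, Bowtie2 and RSEM and the builds GRCm39 and mm39 are named in the submitters' processing notes, without versions or roles.

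Values were taken as log2(FPKM + 1), which understates the change of low genes, and the test kept the 13074 genes that reached 1 FPKM in 2 or more libraries. Groups were fitted with limma 3.58.1 in R 4.3.3 (lmFit, contrasts.fit, eBayes with a trend), with Benjamini-Hochberg adjustment over all genes of a comparison and a threshold of 0.05. The 7 comparisons were each treatment against vehicle, the combination against each agent, palbociclib against OPG-Fc, and the interaction. Comparisons without vehicle used the 9 treated libraries. The ligands, gene lists, groups of ligands and tests were chosen with earlier results of these data known. Ligands were named if called in any comparison, if among the 3 most abundant of their group, or if among the 2 with the smallest p per direction and comparison. Values of Ccl2, Ccl7, Ccl27a and Cxcl3 were added after they were seen, and the remaining ligands are given by range. Receptors were named if called or if read by a ligand group, apart from results not reported here, and S100a8 and Krt10 after their values were seen.

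Alternatives were another pseudocount, other filters, median-of-ratios scaling, quantile normalization, no variance trend, array weights, a replicate block, other sets of libraries and each library left out. Of these, 3 were chosen after seeing the data: leaving out the libraries with skin transcripts, leaving out those with lymphoid transcripts, and averaging libraries whose column names share a first number. The fit was also run on simulated data, and the outcome of that run is not given here. Depth was estimated from the step between low FPKM values in genes with 1 transcript of 1500 to 3500 bases, and is 20500000 to 28000000 fragments for assumed fragments of 200 to 300 bases. Motifs were searched with Python 3.11.15, and figures drawn with matplotlib 3.10.9.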

Additional observations from a re-analysis of the deposited data

How the results depend on the processing

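Leaving out each library in turn gave 4 to 8 called ligands for palbociclib against OPG-Fc, with Cxcl12, Ccl11, Ccl9 and Ccl6 among them each time, and 0 to 2 for the combination against OPG-Fc. It gave 0 to 4 for the combination against palbociclib, where an FPKM of at least 5 gave 1 and array weights 4. It gave 0 to 17 for palbociclib, 0 to 10 for OPG-Fc and 0 to 15 for the combination against vehicle, and 0 to 12 for the interaction, the highest each time without vehicle replicate 1. Without palbociclib replicate 2 there were 2 for palbociclib against vehicle and 1 for the interaction. For palbociclib against OPG-Fc, array weights gave 15 ligands, all 11 libraries 1, and leaving out palbociclib replicates 1 and 3 gave 0. For the combination against OPG-Fc, array weights gave 6, quantile normalization 1, and 0 were called with all 11 libraries, without the libraries with skin or lymphoid transcripts, or with libraries sharing a first number averaged. Over all genes that comparison had 610 called, 13 with all 11 libraries and 21 without OPG-Fc replicate 1, and palbociclib against OPG-Fc had 1350 and, with all 11 libraries, 119. The cause was not tested. Shares of all genes called are not given beside most counts of ligands in this paragraph, so such counts are not a result about the ligands.

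Of 9 pairs of libraries with the same replicate number, 3 had deviations correlated above 0.1 (r of -0.406 to 0.264). Pairs with different numbers had r of -0.378 to 0.423. So few pairs cannot show that pairing is absent, and the check does not concern the first number in the column names. With the replicate block, 5 ligands were called for palbociclib against OPG-Fc and 0 for the combination against OPG-Fc (limma adjusted p = 0.0524 for Cxcl12 and for Ccl11). Without palbociclib replicates 1 and 3, Ccl27b turned to 0.29 in the combination against palbociclib, 0.079 in the interaction and -0.058 in palbociclib against OPG-Fc. Of the other values of named genes, 689 kept their direction and side of the threshold, 69 kept their direction but lost a call, and 29 gained one.

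With 2 or 3 tumours a group, the smallest called difference of a ligand was that of Ccl22, lower by 1.10 on the log2 scale with palbociclib than with OPG-Fc. Ligands below 1 FPKM rest on few fragments.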
